A study of Caenorhabditis elegans with 2 samples.

Results

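Of the 610 peaks in the authors' thresholded list built from both replicates of the NHR-120 immunoprecipitation, 230 had a summit at the start of a protein-coding gene and away from short RNA genes. They were selected by position alone. The summit had to lie within 1 kb of an annotated transcript start of a protein-coding gene, and no 5′ end of a tRNA, snoRNA, snRNA, rRNA or microRNA gene could lie within 1 kb. They are called coding-start peaks here. The remaining 380 peaks comprised 68 near both kinds of gene, 94 near a short RNA gene only and 218 near neither.

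The data were peak lists from chromatin immunoprecipitation followed by sequencing (ChIP-seq) of whole Caenorhabditis elegans. The strain, OP415, carries the integrated transgene wgIs415, a fosmid with nhr-120 fused to TY1, EGFP and 3xFLAG tags. It also carries unc-119(+), which rescues the mutant allele unc-119(tm4063). The single group was made up of 2 biological replicates of synchronised young adults at 64 hours, precipitated through the GFP tag, with no second condition. NHR-120 was measured as a tagged transgene product in mixed tissue, so the lists do not say in which cells a site was occupied, and a control precipitation was not analysed here. The labels say nothing of separate cultures beyond calling the replicates biological.

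Nuclear hormone receptors are transcription factors that bind DNA through a zinc-finger domain and in many cases carry a pocket for small lipophilic ligands. Nematodes have a greatly expanded set of them. Receptors of this class typically recognise short elements related to AGGTCA, and factors of many kinds accumulate at open promoters in ChIP-seq, just upstream of transcript starts. Many C. elegans genes lie close behind another gene on the same strand, some of them in operons, and others share an upstream region with a gene read in the opposite direction.

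Some of the coding-start peaks are shown first because they share 1 word of 8 bases, AGTGTGCG (or CGCACACT on the other strand), set in capitals. It was chosen after the sequences had been seen. Coordinates are ce11, plus strand, and the sequence is that of the RefSeq assembly, 5′ to 3′, within 100 bp of the summit without annotated UTR bases. The peaks lie at rpl-35 (chrIII:7854617-7854817), tasp-1 (chrIII:10759161-10759306) and T13C5.6 (chrX:6207756-6207956).
rpl-35: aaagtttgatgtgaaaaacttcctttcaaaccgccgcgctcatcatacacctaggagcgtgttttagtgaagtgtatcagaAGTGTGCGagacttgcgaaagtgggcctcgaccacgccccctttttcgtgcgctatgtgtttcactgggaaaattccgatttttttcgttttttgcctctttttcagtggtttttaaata
tasp-1: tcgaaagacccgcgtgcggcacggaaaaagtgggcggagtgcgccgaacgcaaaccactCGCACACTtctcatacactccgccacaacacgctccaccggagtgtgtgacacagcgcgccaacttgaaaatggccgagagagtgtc
T13C5.6: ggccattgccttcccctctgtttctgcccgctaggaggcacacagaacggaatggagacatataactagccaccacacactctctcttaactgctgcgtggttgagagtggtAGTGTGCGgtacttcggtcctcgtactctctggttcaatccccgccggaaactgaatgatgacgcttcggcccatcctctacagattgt

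The upstream region shared by F44E5.4 and F44E5.5, a divergent pair whose products are annotated as heat shock protein 70, is shown because of its repeats of the heat-shock element. Capitals mark matches, on either strand, to TTC, 2 bases of any kind, GAA, 2 bases of any kind and TTC (chrII:11759343-11759543). The stretch held 3 separate runs of such matches.
F44E5.4: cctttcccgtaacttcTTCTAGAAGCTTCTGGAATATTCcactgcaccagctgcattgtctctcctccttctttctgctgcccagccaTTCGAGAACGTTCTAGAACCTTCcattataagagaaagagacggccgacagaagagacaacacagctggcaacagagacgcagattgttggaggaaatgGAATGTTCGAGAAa

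Dhs-8 and pcrg-1 peaks are shown because the summit lay inside an annotated non-coding RNA gene of a class that the selection did not remove. Capitals mark the bases inside K10H10.11 (window chrII:14496998-14497198) and inside mrpr-1, the RNA of RNase MRP (window chrII:7200270-7200470).
dhs-8: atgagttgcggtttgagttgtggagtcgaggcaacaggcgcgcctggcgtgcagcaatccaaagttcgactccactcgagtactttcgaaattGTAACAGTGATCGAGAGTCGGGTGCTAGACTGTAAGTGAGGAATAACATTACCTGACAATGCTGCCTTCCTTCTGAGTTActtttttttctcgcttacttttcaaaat
pcrg-1: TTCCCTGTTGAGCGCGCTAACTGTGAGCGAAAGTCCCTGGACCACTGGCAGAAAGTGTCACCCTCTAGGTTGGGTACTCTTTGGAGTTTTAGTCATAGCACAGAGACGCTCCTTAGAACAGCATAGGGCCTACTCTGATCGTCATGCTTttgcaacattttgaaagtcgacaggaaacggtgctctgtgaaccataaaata

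The last windows show a base composition and a gene-body peak. F14F7.5 (chrIII:13032534-13032734), with G and C in capitals, had the highest GC content, and the mdt-26 peak (chrII:5661701-5661901) was the strongest that lay inside a gene, with GAGAGA in capitals.
F14F7.5: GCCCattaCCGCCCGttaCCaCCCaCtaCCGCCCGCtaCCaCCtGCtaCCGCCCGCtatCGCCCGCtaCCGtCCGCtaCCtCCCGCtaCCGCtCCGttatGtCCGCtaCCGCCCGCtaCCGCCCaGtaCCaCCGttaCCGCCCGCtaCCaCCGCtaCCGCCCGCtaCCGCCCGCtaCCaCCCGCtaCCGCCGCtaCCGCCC
mdt-26: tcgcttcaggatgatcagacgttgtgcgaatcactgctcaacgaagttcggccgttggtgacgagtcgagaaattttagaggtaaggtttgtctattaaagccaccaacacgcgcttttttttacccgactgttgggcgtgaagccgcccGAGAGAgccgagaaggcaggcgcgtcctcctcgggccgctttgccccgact

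The 230 coding-start peaks were moderate in signal, the authors' own value per peak, whose scale is not stated. The median was 75.9 (95% order-statistic interval 74.3 to 78.3), against 80.1 for the other 380 thresholded peaks and 84.9 for the 94 at short RNA genes only. The 218 peaks away from both kinds of gene had a median of 77.4, inside the interval of the coding-start peaks. Most values fell in a narrow band, with 189 of 230 between 60 and 100. At the extremes, 25 peaks reached at least 100 and 5 stayed under 20. Those 5 lay at pck-2 (signal 12.3), pdi-1 (11.5), ins-39 (8.59), F53A9.8 (6.91) and trap-3 (3.64). Each of the 5 overlapped a stronger coding-start peak. That peak had the same nearest gene at ins-39, F53A9.8 and trap-3, and was the peak of R11A5.6 (82.8) for pck-2 and of cyn-9 (57.5) for pdi-1. In all, 9 genes were the nearest gene of 2 coding-start peaks, and none of more.

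The strongest coding-start peak lay 681 bp upstream of rpa-2, a gene for a subunit of replication protein A, which binds single-stranded DNA (chromosome I, 4769571 to 4769692). Its joint signal was 254, with 107 in replicate 1 and 144 in replicate 2, each taken from that replicate's own ranked list. At K08F11.1 the joint signal was 232, with 108 in replicate 1 and 122 in replicate 2. The rpl-3 peak, 277 bp upstream of a gene for a protein of the large ribosomal subunit, had a joint signal of 191, with 76.5 in replicate 1 and 117 in replicate 2. At F44E5.4 and F44E5.5 the joint signal was 180, with 70.6 in replicate 1 and 106 in replicate 2. These peaks were high in both replicates and higher in replicate 2.

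Mdt-26 had the next strongest peak, 607 bp into a gene whose product has a domain found in the elongation factor TFIIS, with a joint signal of 176. It reached 84.1 in replicate 1 and 80.3 in replicate 2, but passed the threshold of replicate 1 only. The mog-4 peak (170), upstream of a splicing helicase gene, had 56.2 in replicate 1 and 111 in replicate 2. At F56G4.6 and wbp-4 the peak (154) had 65.0 in replicate 1 and 91.0 in replicate 2. Replicate 1 was the higher for rpl-35 (149), with 88.2 in replicate 1 and 61.5 in replicate 2, and for ints-8 (147), with 93.4 and 61.1 in replicates 1 and 2. Eel-1, a ubiquitin ligase gene, had 63.6 in replicate 1 and 87.0 in replicate 2 at its stronger peak (146). Replicate 2 was thus not uniformly the higher.

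The next in order lay at tasp-1 (joint signal 141), at Y17G9B.5 and rpl-20 (138), at C46C2.7 (135), at nspc-17 and set-16 (129 each), and at cnk-1 (125). Y39B6A.43 (117), serp-1.1 (113), dhs-8 (111) and K10D2.5 (107) completed the 20 strongest. Set-16 encodes a relative of the histone methyltransferases of the MLL class, and tasp-1 a homologue of the protease taspase, which in mammals cleaves MLL. Over the 20 strongest, replicate 1 signals ran between 48.7 and 108 and replicate 2 signals between 51.4 and 144, with replicate 2 higher in 14 and replicate 1 higher in 6. Every one of the 20 ranked at or above percentile 99.6 of each replicate's ranked list, and the conservative list held all 20.

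**Figure D1:**
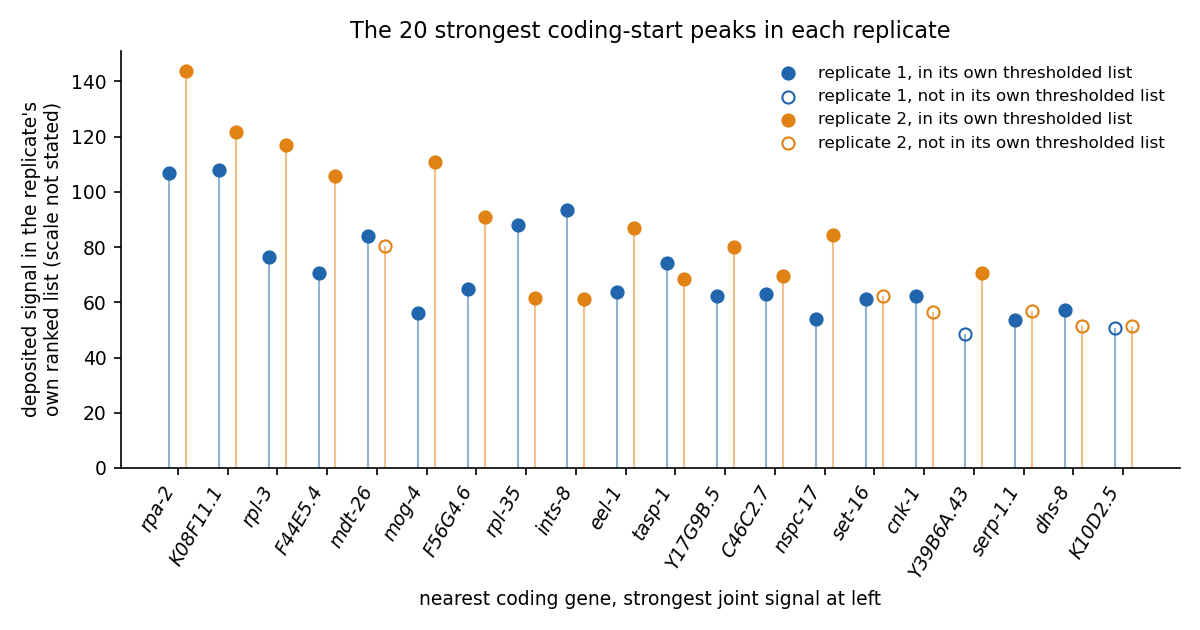
Deposited signal (vertical axis, scale not stated) of the 20 strongest coding-start peaks in replicate 1 (blue) and replicate 2 (orange), ordered by joint signal. Filled points passed that replicate's own threshold, and 13 of the 20 peaks are filled in both.

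Few coding-start peaks passed the threshold within a single replicate. The own lists are short, with 89 peaks in replicate 1 and 96 in replicate 2. In the own list of replicate 1 there were 27 (11.7%, 95% Wilson interval 8.19 to 16.5%), where 13.8% of all 610 thresholded peaks were present. Replicate 2 had 25 (10.9%, 7.47 to 15.6%), where 14.6% of all 610 were present. Both lists held 14 (6.09%, against 7.7% of all 610), and 192 were in neither (83.5%, against 79.3%). The intervals hold the shares for all 610 in each of the single lists. The 14 comprised 13 of the 20 strongest, namely those of rpa-2, K08F11.1, rpl-3, F44E5.4, mog-4, F56G4.6, rpl-35, ints-8, eel-1, tasp-1, Y17G9B.5, C46C2.7 and nspc-17, plus the peak 41 bp upstream of pro-1 (joint signal 97.6, with 55.6 in replicate 1 and 56.0 in replicate 2). Of the 14, 13 lay between coding genes and 4 between divergent starts. Mdt-26, set-16, cnk-1, serp-1.1 and dhs-8 passed in replicate 1 only, Y39B6A.43 passed in replicate 2 only, and K10D2.5 in neither.

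Coding-start peaks were near the top of each replicate's ranked list, a position that selection by a joint threshold on the same libraries favours. An overlapping ranked peak was found in both replicates for 227 of 230. Replicate 1 signals had a median of 37.2 (range 17.9 to 108) and a median percentile of 98.6. In replicate 2 the median was 40.4 (range 18.7 to 144) at percentile 98.8. The other thresholded peaks had median percentiles of 99.1 in replicate 1 and 99.2 in replicate 2. The replicates ordered the peaks differently: across the 227 peaks, Spearman's rho was 0.0975 and Pearson's r of log2 signal was 0.351. These describe peaks from the same 2 libraries that had already passed a joint threshold, and peaks are not independent replicates. Signals differed by more than 1.5 times in 57 and by more than 2 times in 9. The conservative list held 159 of 230 at the same interval (69.1%, against 72% of all 610). Which comparison the authors' threshold for the joint list rests on is not stated.

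Summits lay closer to coding starts than those of other peaks, at a median distance of 331 bp (95% order-statistic interval 277 to 414 bp), against 432 bp for ranked peaks. The background was the 47456 peaks of the joint ranked list that pass the same selection and do not overlap the thresholded list. The summit was upstream of the nearest coding start in 113 of 230 (49.1%, 95% Wilson interval 42.7 to 55.6%), against 42.8% of the ranked peaks, a share at the lower edge of that interval. The last 400 bp before the start held 67 peaks (29.1%, 23.6 to 35.3%), against 20.5% of ranked peaks, and more than 200 bp downstream there were 71 (30.9%, 25.3 to 37.1%), against 43.03%. Within 200 bp on either side lay 77 (33.5%, 27.7 to 39.8%), against 25.5%. The median position was 7 bp past the start, against 98 bp for ranked peaks.

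**Figure D2:**
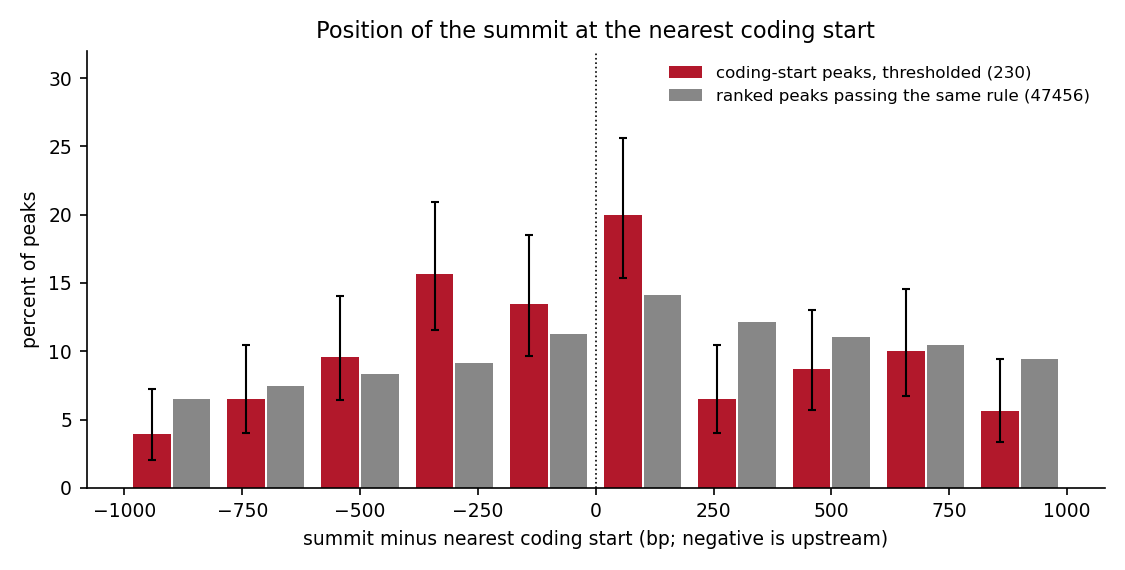
Percent of peaks (vertical axis) by summit position relative to the nearest coding start in bins of 200 bp (horizontal axis, negative is upstream), for the 230 coding-start peaks (red, with 95% Wilson intervals) and the 47456 ranked peaks (grey). The red bars exceed the grey most at 400 to 200 bp upstream (15.7% against 9.15%) and fall below them at 200 to 400 bp downstream (6.52% against 12.2%).

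Summits between coding genes numbered 77 (33.5%, against 27.6% of ranked peaks). Coding exons held 83 (36.1%, against 37.3%), introns 51 (22.2%, against 29.3%), 5′ UTRs 14 (6.09%, against 3.33%) and 3′ UTRs 5 (2.17%, against 2.46%). Over 50% of the coding-start peaks were therefore inside the body of a coding gene, 134 of 230 in a coding exon or an intron. This does not set them apart, as the exon share was near that of ranked peaks and the intron share was below it.

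Location went with signal. Ordered by signal and split into 5 classes of 46, the strongest class (signal 90.8 to 254) differed from the middle one. In the strongest, 65.2% were upstream of the nearest start, 58.7% lay between coding genes and 13.0% in a coding exon. The next class had 60.9% upstream, 43.5% between genes and 30.4% in a coding exon. In the middle class (signal 73.5 to 79.7) the order was turned round, with 34.8% upstream, 15.2% between genes and 54.3% in a coding exon (40.2 to 67.8%). The class after it had 30.4% upstream and 45.7% in a coding exon. In the weakest class 54.3% were upstream and 37.0% in a coding exon, so the share did not fall steadily. Of the 20 strongest, 18 lay between coding genes, 2 in an intron (mdt-26 and ints-8) and 0 in a coding exon. The summit was upstream of the nearest start in 16 of the 20. At K08F11.1 and C46C2.7 it lay outside coding genes but 452 and 837 bp past the nearest start. All 14 peaks found in both own lists fell in the strongest class.

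**Figure D3:**
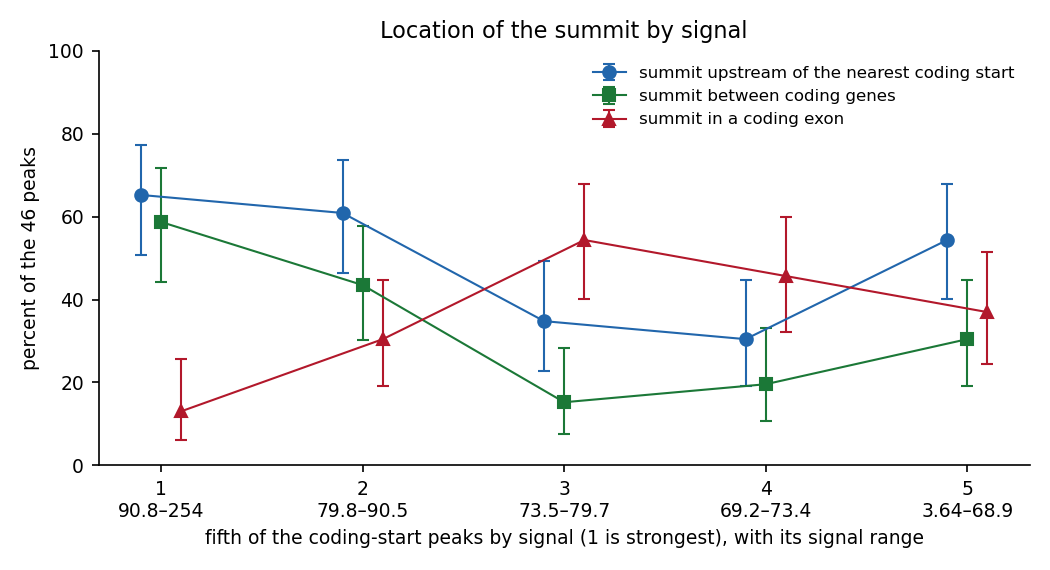
Percent of the 46 coding-start peaks in each of the 5 classes by signal (horizontal axis, strongest first, signal range below) whose summit was upstream of the nearest start, between coding genes or in a coding exon, with 95% Wilson intervals. Summits between genes make up 58.7% of the strongest class and 15.2% of the middle one, and coding exons 13.0% and 54.3%.

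Divergent gene pairs were a recurring setting. A peak was counted as divergent when coding starts on both sides, within 1 kb of the summit, were read away from it. This held for 25 of 230 (10.9%, 95% Wilson interval 7.47 to 15.6%), against 3.69% of ranked peaks. Among peaks upstream of their nearest start the shares were 18.6% and 7.26% of the ranked ones. The 25 peaks lay between 23 different pairs, and the starts were a median of 621 bp apart, against 923 bp for divergent ranked peaks. The median signal of divergent peaks was 82.8, against 75.5 for the other coding-start peaks. The classes by signal held 8, 8, 3, 2 and 4 divergent peaks, strongest first.

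The F44E5.4 and F44E5.5 starts were 351 bp apart, with the summit 132 bp from the first and 219 bp from the second. Rpl-20 and Y17G9B.5 had starts 462 bp apart (joint signal 138, with 62.3 in replicate 1 and 79.9 in replicate 2). Between rps-19, for a protein of the small ribosomal subunit, and hsr-9 the gap was 445 bp (90.4, with 44.95 in replicate 1 and 41.9 in replicate 2). All 3 genes marked in the chaperone list were in such a pair. Hsp-90, with C47E8.4, had a joint signal of 94.8, and hsp-60, the mitochondrial chaperonin, with Y22D7AL.10, had 87.3. Another, cct-8, a subunit of the cytosolic chaperonin, with Y55F3AR.2, had 84.9.

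Other divergent pairs were drr-2 and set-16 (129), prp-19, a splicing factor, and K10D2.5 (107), dad-1 and tre-1 (92.0), lin-53, a histone-binding protein, and nra-2 (69.6), and trap-2 and ile-2 (68.8). The shortest gaps were 204 bp, at cux-7 and C07H6.2 (82.1) and at M01F1.4 and mrpl-35 (70.4), and 245 bp at F25H9.6 and F25H9.7 (81.7). The peaks at these gaps were not the strongest divergent ones. Strong peaks also lay at gaps below the median of 621 bp: F44E5.4 and F44E5.5 (180, gap 351 bp), F56G4.6 and wbp-4 (154, 286 bp), and drr-2 and set-16 (129, 346 bp). The tasp-1 peak (141), with K01G5.10 on the other side, had a gap of 785 bp.

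**Figure D4:**
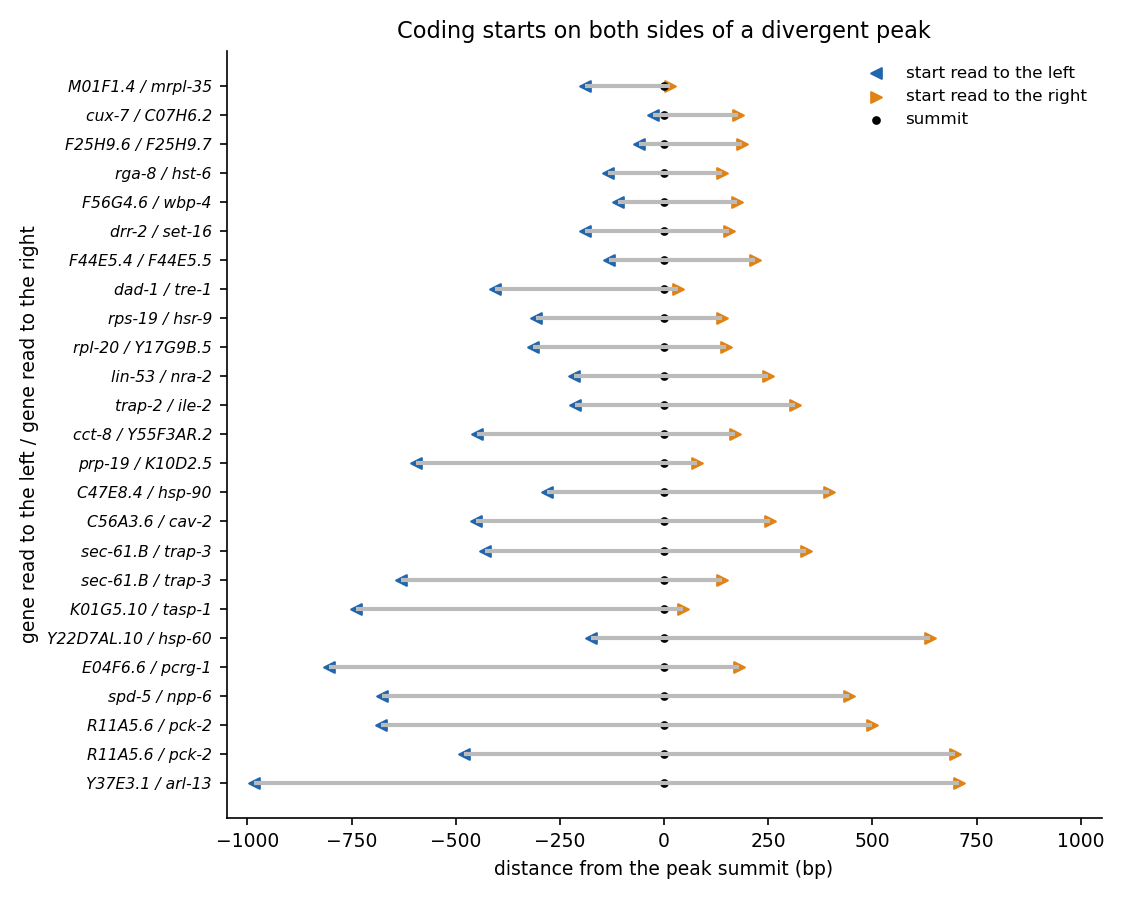
Coding starts (triangles, pointing in the direction of reading) on both sides of the 25 divergent summits (black points at 0), by distance from the summit in bp (horizontal axis), with the closest pair at the top. The gap runs from 204 bp at cux-7 and C07H6.2 and at M01F1.4 and mrpl-35 to 1694 bp at Y37E3.1 and arl-13.

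Genes in tight same-strand succession were also common. The nearest gene had another coding gene on the same strand ending within 500 bp upstream in 67 of 230 (29.1%, 95% Wilson interval 23.6 to 35.3%), against 18.5% of ranked peaks and 18.1% of all coding genes. The share was 27.4% for summits upstream of the start and 30.8% for those downstream. Examples were xrn-2 behind rpl-43, inx-7 behind rps-25, and pro-1 behind mnk-1. Whether these pairs form operons was not examined.

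In all, 271 of 19973 coding genes had a start within 1 kb of a coding-start peak (1.36%), the level to set beside each gene group. Ribosomal protein genes, whose products build the ribosome, had 6 of 81 marked (7.41%, 95% Wilson interval 3.44 to 15.2%): rpl-3, rpl-35, rpl-20, rpl-43, rps-19 and rps-25. Their peaks lay between genes in 5 of 6 cases, were in both own lists in 3, and had a GC content of 36.8 to 45.8%. The ribosomal gene had the nearest coding start only at rpl-3 and rpl-35. The rpl-20 and rps-19 peaks were nearer to their divergent partners Y17G9B.5 and hsr-9. The rps-25 peak was upstream of inx-7, its nearest gene, which lies behind rps-25 on the same strand. The rpl-43 peak had xrn-2 as its nearest gene, with the summit 98 bp past the start of xrn-2. Splicing and RNA processing genes had 7 of 93 marked (7.53%, 3.69 to 14.7%), with mog-4 (170), prp-19 (107) and xrn-2 (91.9) strongest and 5 of the 7 summits in a coding exon.

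Cuticle collagens, the structural proteins of the worm's outer coat, formed the clearest contrast in position. The list, drawn from gene names, had 8 of 198 marked (4.04%, 2.06 to 7.77%), led by col-39 (87.3), col-122 (86.9) and col-103 (84.6). Every summit of the 8 lay in a coding exon, and GC content ran between 51.7 and 66.2%. Of these, dpy-11 encodes a thioredoxin-like protein rather than a collagen, and its summit lay in an exon of the neighbouring gene mdh-1. T22D1.17 (71.5), annotated with a cuticle collagen N-terminal domain, was outside the list because its name did not match. Its summit also lay in a coding exon, but its GC content was 31.3%. None of the 8 was in both own lists. At col-39 replicate 1 had 44.3 and replicate 2 had 39.5, and at col-122 replicate 1 had 32.01 and replicate 2 had 54.0. Repeated sequence reached 59.1% at col-93, 48.1% at col-167 and 46.4% at col-185.

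Histone genes had 4 of 81 marked, his-37 (81.1), his-1 and his-2 under 1 peak (78.6) and hil-3 (68.9). Heat shock and chaperone names had 3 of 59 marked, and F44E5.4, F44E5.5 and Y22D7AL.10, the last annotated as a mitochondrial heat shock protein, were outside that list because their names did not match it. Glycolysis had 2 of 19 marked, gpd-3 (84.4) and gpd-1 (71.8), each with at least 45.1% repeated words, which belong to a family of closely similar glyceraldehyde-3-phosphate dehydrogenase genes. The respiratory chain had 2 of 40, cox-5A (82.7) and nuo-5 (74.7). Nuclear hormone receptor genes, the family of NHR-120 itself, had 2 of 272 marked (0.735%, 0.202 to 2.64%), nhr-241 (74.7) and nhr-239 (66.3), a share whose interval holds that of all coding genes. Chemoreceptor names had 3 of 1371 (0.219%, 0.0744 to 0.641%), srx-68, srh-214 and srh-159, a share below that of all coding genes. F59A1.11 (92.8), annotated as a serpentine receptor of class T, had a stronger peak than those 3. It was outside the list because its name did not match.

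Ubiquitin ligase genes eel-1 and wwp-1 (102) were 2 of 63 in their list, and tba-2 (71.8) and klp-6 (69.5) 2 of 34 for the cytoskeleton. F-box and BTB names had 3 of 450, led by fbxb-72 (81.9), and C-type lectins and lysozymes 2 of 275, clec-145 (75.4) and clec-83 (59.5). By gene name, single genes were marked for detoxification enzymes (cyp-33C5, 69.6), lipid and yolk (dhs-8) and neuropeptides (ins-39, 79.9). Single names were also marked for major sperm proteins (msp-33, 84.5, with 77.9% repeated words) and other transcription factors (zip-7, 101). Lists drawn from names leave out some relatives: F57A10.2 (104) is annotated as a major sperm protein and R13D11.10 (74.3) as a neuropeptide-like protein. F55C9.11 (91.4), T28B11.1 (75.3), C43D7.8 (73.2) and K10G4.10 (72.6) are annotated with an F-box domain, and Y43F8C.3 (71.1) with a BTB domain. The F-box and BTB list therefore missed more marked genes than it counted, and the F55C9.11 peak was stronger than that of fbxb-72. Of 41 translation factor genes, 32 tRNA synthetase genes and 20 vacuolar ATPase genes, 0 were marked, which the Wilson intervals allow to be up to 8.57%, 10.7% and 16.1%. T04F8.8 (78.9), annotated as translation initiation factor IF-2, was outside the list of translation factors. These counts are of starts within 1 kb: the summits of the F31E3.12 and hrpu-1 peaks lay in coding exons of the elongation factor genes eef-1A.1 and eef-1B.2, whose own starts were farther away.

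The genomic background of coding-start peaks was rich in G and C. The median GC content within 100 bp of the summit was 47.3% (95% order-statistic interval 46.3 to 48.3%), against 38.3% for ranked peaks and 46.8% for the other thresholded peaks. The difference from ranked peaks was present for summits in coding exons (48.8% against 40.8%), in introns (49.8% against 36.8%), between genes (45.8% against 36.3%) and in 5′ UTRs (46.8% against 39.3%), although only 14 peaks made up the last. The highest contents were at F14F7.5 (70.6%), Y48G8AR.8 (67.7%) and col-93 (66.2%), and the lowest at W09D10.5 (28.4%), F55H12.2 (28.9%) and T28F4.5 (30.3%). By signal class the median was 45.8% in the strongest, 49.5% in the middle, 50.2% in the one after it and 45.3% in the weakest.

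**Figure D5:**
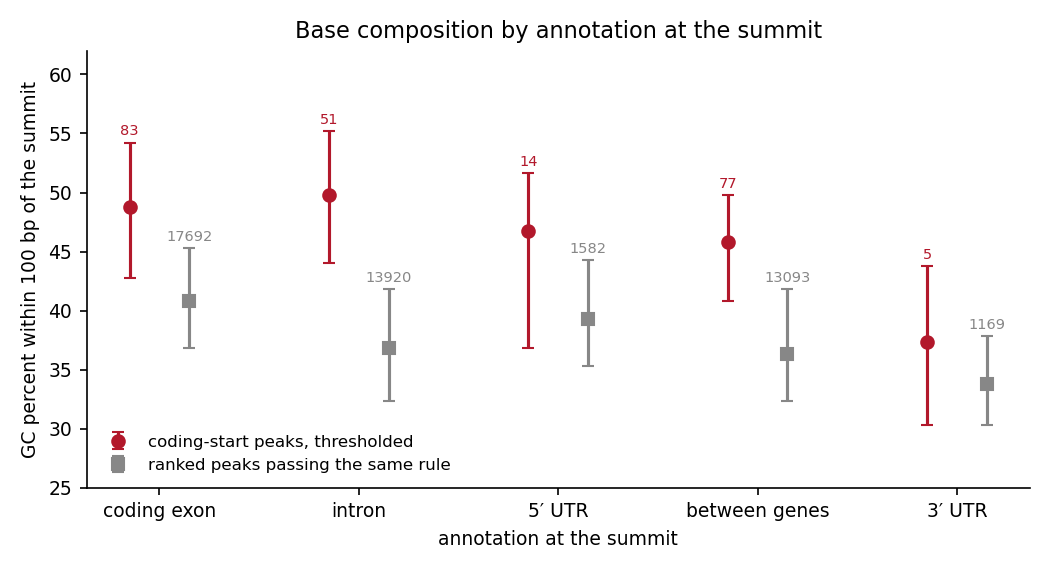
GC content within 100 bp of the summit (vertical axis) by annotation at the summit, for coding-start peaks (red circles) and ranked peaks that pass the same selection (grey squares). Points are medians, bars span the quartiles and the numbers are peaks, and the red median lies above the grey one in each of the 5 annotations.

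Short words were searched on both strands in the same windows, and a match is a description of letters only. AGGTCA, the half-site typical of nuclear receptors, was present in 7.39% of coding-start peaks (95% Wilson interval 4.67 to 11.5%), against 5.49% of ranked peaks and 6.18% of the 13225 ranked peaks with a GC content of 41.9 to 53.2%. AAGTCA was present in 7.83%, against 9.29% of ranked peaks. GAGAGA was present in 18.3% (13.8 to 23.8%), against 11.5% of ranked peaks and 15.2% of those with similar GC content. TATAAA (8.26% against 17.3%), TGATAA (23 of 230, against 16.5%) and TTTCAG (21.7% against 35.8%) were less frequent than in ranked peaks. With similar GC content the ranked shares of these words were 7.65%, 10.8% and 27.6%. CACGTG was present in 4.78%, against 4.34% of ranked peaks and 6.17% of those with similar GC content, so the direction turned. In the other thresholded peaks AGGTCA was in 8.16%, AAGTCA in 6.05%, GAGAGA in 20.5% and CACGTG in 5%. There TATAAA was in 15%, TGATAA in 9.47% and TTTCAG in 17.6%. AGGTCA and GAGAGA were thus no more frequent in coding-start peaks than in the rest of the thresholded list. The tRNA-type word GTTCGANNC, with N for any base, was in 3.91% (2.07 to 7.27%), against 1.67% of ranked peaks. Ranked peaks with similar GC content had 2.17%, a share inside the interval. The other thresholded peaks had 21.8%, but they include those at short RNA genes, which the selection removed.

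The word AGTGTGCG, chosen after the sequences were seen and shown above, was present in 9 coding-start peaks (3.91%, 2.07 to 7.27%). It was in 0.377% of ranked peaks, 0.567% of those with similar GC content and 1.58% of the other thresholded peaks. Because the word was picked from coding-start peaks, these shares are no independent comparison. The coding-start peaks with it included those of rpl-35, ints-8, tasp-1, tre-1, T13C5.6, Y22D7AL.10, spd-5 and ZK816.3. In 4 of the 9 the summit was inside a non-coding RNA gene. The heat-shock element spelled out above, also added afterwards, was present in 5 (2.17%, 0.932 to 4.99%), against 1.17% of ranked peaks. They included F44E5.4 and the hsp-60 pair, the remaining ones being peaks of pck-2, R107.5 and tent-5. The interval holds the ranked share, whereas the 0.907% of ranked peaks with similar GC content lies just below it. This comparison is not independent either, because the element was added with the sequences known.

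A set of strong coding-start peaks shared sequence with each other. Within 100 bp of the summits, the rpa-2 and K08F11.1 sequences, on chromosomes I and IV, had an identical run of 112 bases. Inside the peaks, which are narrower, 65 words of 30 bases were shared, of 93 at rpa-2 and 83 at K08F11.1. Of the 30-base words of these peaks, 83.9% and 100% occurred more than once in the genome. The mog-4 and C46C2.7 peaks, on chromosomes II and IV, shared a run of 24 bases. A word of 13 bases was taken from these peaks, as the longest run common to the K08F11.1 and mog-4 windows. All 4 peaks held it or its complement, K08F11.1 and mog-4 by construction. Its share in ranked peaks, 0.00632%, is therefore no independent comparison, and those ranked peaks exclude any that overlap the thresholded list. The word occurred 25 times in the 6 chromosomes, 8 times in thresholded peaks and 16 times in ranked ones, and 17 occurrences were outside the thresholded list. The other 4 thresholded peaks with it, with signals of 121, 105, 90.1 and 89.1, lay away from coding starts. How reads that match several places were treated is not stated, and its part in these signals was not tested.

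Among all coding-start peaks, repeated sequence was less common than in the rest of the thresholded list. Over 5% of the 30-base words were repeated in 22.6% of coding-start peaks (95% Wilson interval 17.7 to 28.4%), against 53.7% of other thresholded peaks and 13.8% of ranked peaks. The other thresholded peaks include those at short RNA genes, which the selection removed. Among the 218 away from both kinds of gene the share was 44.5%. Of the 20 strongest, 8 were over this limit. The eel-1 peaks shared a run of 76 bases with each other.

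Non-coding RNA genes outside the removed classes were found under some summits. In 15 coding-start peaks (6.52%, 95% Wilson interval 3.99 to 10.5%) the summit was inside a gene annotated as ncRNA, against 1.30% of ranked peaks. For summits between coding genes the shares were 13.0% and 2.48%. The ints-8 summit lay 6 bp past the start of rpr-1, the RNA subunit of RNase P, which matures the 5′ ends of tRNAs. At pcrg-1 (joint signal 74.2, with 42.95 in replicate 1 and 36.6 in replicate 2) the summit was 137 bp into mrpr-1. The klp-6 summit was 46 bp into srpr-2.2, with 56.2% repeated words. Dhs-8, whose coding start is 928 bp away, had its summit 7 bp into K10H10.11, and T13C5.6 had its summit 21 bp into C14F11.14. At tre-1 and dad-1 it was 14 bp into F57B10.17. Whether these signals belong to the coding gene or to the RNA gene cannot be told apart.

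Chromosome shares differed from those of the other thresholded peaks on X. There lay 28 coding-start peaks (12.2%, 8.56 to 17.03%), against 28.2% of the other thresholded peaks and 14.7% of ranked peaks. The 218 thresholded peaks away from both kinds of gene had 23.9% on X. Chromosome II held 9.13%, against 17.6% of ranked peaks, and III held 18.7%, against 13.2%.

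At the edges of the selection, the coding-start peaks farthest from a start were those of epg-9 (998 bp, signal 82.0), F57A10.2 (970 bp, signal 104) and F31E3.12 (970 bp, signal 75.6). The nearest peaks outside lay 1008, 1016 and 1018 bp from a coding start, with signals of 103, 66.7 and 79.2. The kept peaks with the nearest short RNA gene were those of C06G4.4 (1049 bp, signal 76.6), rbm-34 (1138 bp, 63.4) and F22H10.6 (1147 bp, 72.7). Peaks left out for a short RNA gene at the largest distances were those of kap-1 (886 bp, signal 65.9), idpc-6 (874 bp, 75.8) and dpm-3 (679 bp, 83.7).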

How the data were processed

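The authors deposited 8 peak lists on ce11: thresholded, conservative and 2 ranked lists for both replicates, and a thresholded and a ranked list for each replicate. The deposited signal per peak has no stated scale. The summit offset was taken from the deposited lists. The deposited −log10 of the irreproducible discovery rate was used to check the thresholds, and all lists were read as deposited. The sources used here name neither aligner nor peak caller. Because the lists hold no counts, depth is unknown, and intervals cover counting error only. The 32 paired columns of the ranked lists name no sample and were not used.

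Gene models came from Ensembl release 115 (WBcel235), with symbols also from RefSeq. A replicate's value is its strongest ranked peak overlapping by at least 1 bp. Side, divergent pairs, GC content, words and repeats (30-base words with several genomic copies) were computed with Python 3.11.15, pandas 2.3.3 and numpy 2.4.6. The placement code was tested on simulated data. With 1 group and no contrast, no test was run over peaks. Shares carry 95% Wilson intervals and medians order-statistic intervals.

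The members, gene lists and words were chosen with earlier results of these data known. Named genes are the 20 strongest, those in both replicates' own lists, up to 3 per gene list, the 3 closest divergent pairs and the 3 highest and 3 lowest GC contents. Sequences that share a 30-base word with chromosome I are not printed. One further window is not reported here. The alternatives tried were other windows, gene ends, lists and exclusions.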

Additional observations from a re-analysis of the deposited data

How the results depend on the processing

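Of 60 recomputed values, 46 stayed within 1.5 times the count or within the 95% interval of the main value, and 14 moved; the cause was not tested beyond the smaller lists. In the upper 50% of the thresholded list by signal there were 97 coding-start peaks, of which 60.8% were upstream, 17.5% were divergent and 14.4% were in both own lists, with a median signal of 90.2. In the own lists of single replicates, leaving out replicate 1 or replicate 2, counts were 29 and 27, upstream shares 65.5% and 66.7%, divergent shares 13.8% and 18.5%, median GC contents 45.8% and 47.8%, and median signals 66.8 and 62.05. Over the whole peak interval the median GC content was 45.8%. Windows of 500 bp and 2 kb, gene ends, the conservative list, exclusion of all non-coding RNA genes, merged overlaps, a 50% overlap, and peaks with at most 5% repeated words (178 peaks, chosen after seeing the data) moved none of the values they gave. No paired analysis was possible because the design has 1 group.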

Other observations

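A set of genes for import into and folding in the endoplasmic reticulum was assembled after the values had been seen, so its count is a description of a chosen list. By gene name, 28 genes belonged to it and 9 had a coding-start peak (32.1%). Because the list was assembled with the peaks known, this share cannot be weighed against the 1.36% of all coding genes. They were serp-1.1 (signal 113), dad-1 (92.0), sec-61.G (86.6), sec-61.B and trap-3 under the same peak (78.4), spcs-3 (78.2), crt-1 (69.5), trap-2 (68.8) and pdi-1 (11.5). Their products include subunits of the translocation channel and its associated complex, a subunit of the oligosaccharyltransferase (dad-1), a subunit of signal peptidase (spcs-3), the calcium-binding chaperone calreticulin (crt-1) and a disulfide isomerase (pdi-1). The summits lay between coding genes for 7 of the 9 genes and upstream of the nearest start for 7. None was in the own lists of both replicates, and serp-1.1 was in that of replicate 1. In replicate 1 their signals ran between 23.3 and 53.7, and in replicate 2 between 30.1 and 57.0.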
